A study of Mus musculus with 2 samples.

Results

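The Ms4a genes examined here are 7 members of the membrane-spanning 4A family, Ms4a1, Ms4a3, Ms4a4c, Ms4a6b, Ms4a6c, Ms4a6d and Ms4a7, out of 19 Ms4a genes among 48709 gene rows. They were taken by gene symbol, and their transcripts were counted in CD11b-enriched single cells of the mouse cochlea. There were 2 libraries, 1 of implanted and 1 of non-implanted cochleae, taken 33 days after an electrode was placed. Both pooled male and female mice of strain C57BL/6J/B6 with the genotype CX3CR1+/GFP Thy1+/YFP, so implanted and non-implanted cells carry the same fluorescent reporters and 1 altered Cx3cr1 allele. The sources used here give neither the number of animals nor whether the electrode released a drug, although the series title speaks of dexamethasone-eluting and standard arrays. With 1 library in each group there is no replicate and no test, and every interval below is a 95% interval that covers counting error only.

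MS4A proteins are small membrane proteins that cross the membrane several times and sit beside receptors at the surface or in endosomes. The best known are CD20, the product of Ms4a1 on B cells, and the beta chain of the high-affinity IgE receptor, the product of Ms4a2 on mast cells and basophils. Ms4a3 is known as a gene of granulocyte and monocyte progenitors, while several Ms4a4, Ms4a6 and Ms4a7 genes are known from monocytes and macrophages.

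After barcodes with fewer than 200 genes or more than 10% mitochondrial UMIs (unique molecular identifiers, 1 per captured transcript) were left out, 3149 implanted and 3513 non-implanted barcodes remained. Removal of 84 and 102 likely doublets left 3065 and 3411 cells, with 18424595 and 20374205 UMIs and a median of 4237 and 4150 UMIs a cell. The 2 libraries shared 6 barcodes. Itgam, the gene of CD11b, had 0 UMIs in both libraries, while Ptprc, the gene of the leukocyte surface protein CD45, was seen in 90.0% and 93.1% of cells. Clusters were made without any Ms4a gene, and each took a class name ending in "-like" from marker genes, or stayed unnamed. The leading genes of a cluster are the 10 most raised over all other cells. A cluster called led by a gene has it among those 10, not always first, and the genes printed were picked from them. Mature neutrophil-like cells were 40.8% of implanted and 47.3% of non-implanted cells, monocyte-like cells 6.98% and 4.81%, macrophage-like cells 7.05% and 5.45%, and promyelocyte-like cells 2.48% and 1.61%. Levels are given in CPM, the UMIs of a gene divided by the UMIs of all genes in the same class and library, times 1e6. The value of the implanted library comes first wherever a pair is given.

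The 19 Ms4a genes lie together on chromosome 19 of GRCm38, from base 10962293 to 11640851 in GENCODE M21, a stretch of 679 kb with 3 other protein-coding genes inside it. The members occur there in the order Ms4a1, Ms4a7, Ms4a4c, Ms4a6c, Ms4a6b, Ms4a6d and Ms4a3. Ms4a1 (chr19:11249675-11266241), Ms4a7 (chr19:11321039-11336146), Ms4a6d (chr19:11586604-11604849) and Ms4a3 (chr19:11629496-11640851) are read from the minus strand. Ms4a4c (chr19:11404770-11427246), Ms4a6c (chr19:11469366-11482192) and Ms4a6b (chr19:11516512-11531256) are read from the plus strand. Among the members, the 3 on the plus strand were the 3 whose highest level was in monocyte-like cells. Ms4a8a, which is not a member, is on the minus strand and was also highest in those cells.

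**Figure D1:**
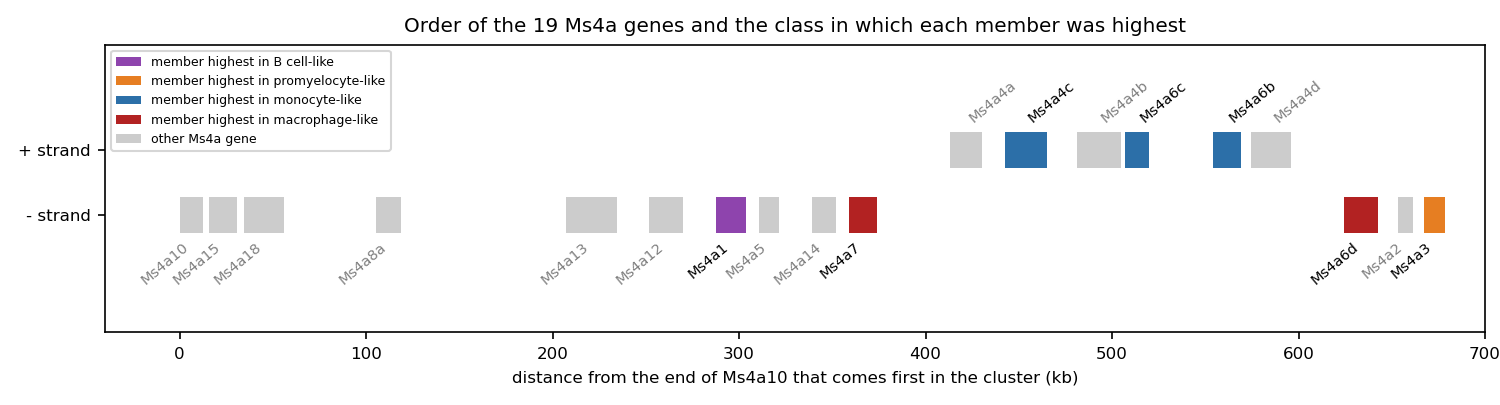
Map of the 19 Ms4a genes along 679 kb, with distance in kb on the horizontal axis and the 2 strands as rows. Coloured boxes are the 7 members, by the class in which each had its highest CPM, and grey boxes are the other Ms4a genes.

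Ms4a6b and Ms4a6c were the pair of members with the most alike levels over clusters, and their upstream sequences are shown because they also align with each other. Promoter sequences are from RefSeq (GRCm38.p6), which gave 250 bases before the start of 5 of the 7 members. Ms4a1 and Ms4a6d had no entry in that table. The stretch of Ms4a6b is chr19:11518311-11518452 and that of Ms4a6c chr19:11469193-11469330, both on the plus strand. Each promoter was trimmed before the first exon base of the start it belongs to in GENCODE M21 and then aligned, and the stretch of Ms4a6b lies inside the gene's annotated span, behind an earlier start. Capitals mark the 112 bases that are identical in the best local alignment of the trimmed sequences, which spans 144 columns (77.8% identical).
Ms4a6b: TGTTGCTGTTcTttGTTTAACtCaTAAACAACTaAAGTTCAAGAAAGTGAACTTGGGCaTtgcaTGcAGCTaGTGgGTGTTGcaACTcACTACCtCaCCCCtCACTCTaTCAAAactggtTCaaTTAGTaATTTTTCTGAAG
Ms4a6c: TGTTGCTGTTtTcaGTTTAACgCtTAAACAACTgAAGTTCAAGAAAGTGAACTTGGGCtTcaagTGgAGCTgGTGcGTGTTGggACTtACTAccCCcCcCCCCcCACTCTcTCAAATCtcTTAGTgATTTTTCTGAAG
Over the whole 250 bases, exon bases included, the best local alignment of Ms4a6b and Ms4a6c had 148 identical bases in 180 columns (82.2%). Its score of 115 was the highest of the 153 pairs of 18 Ms4a promoters, followed by 99.0 for Ms4a4b and Ms4a4c with 117 identical bases and 18.5 for Ms4a14 and Ms4a5, and the median pair had 17 identical bases. On the trimmed sequences the score of Ms4a6b and Ms4a6c was 79.0, below that of Ms4a4b and Ms4a4c, which were not trimmed. GAGGAA, a core of sites for the myeloid factor PU.1, was found on either strand in the 250 bases of Ms4a4c, at 61 bases before its start, and in none of the other 4 members in the table. Of 32851 promoters of that length, 23.3% hold it. TTGCNNAA, a form of the C/EBP site, was in none of the 5 and is in 9.56% of promoters. CANNTG, the E-box, was found before the starts of Ms4a3, Ms4a4c, Ms4a6c and 1 of the 2 starts of Ms4a7, and is in 66.2% of promoters.

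Each member had a class of its own or shared it with 1 or 2 others. Ms4a1 was highest in B cell-like cells, Ms4a3 in promyelocyte-like cells, Ms4a4c, Ms4a6b and Ms4a6c in monocyte-like cells, and Ms4a6d and Ms4a7 in macrophage-like cells. These are descriptions of which class was highest among named classes of at least 20 cells, over both libraries. Of all Ms4a1 UMIs, 92.5% were in B cell-like cells, and of all Ms4a3 UMIs, 50.4% were in promyelocyte-like and 40.3% in cycling immature neutrophil-like cells. Monocyte-like cells held 64.6% of the Ms4a4c, 45.7% of the Ms4a6b and 54.5% of the Ms4a6c UMIs. Macrophage-like cells held 69.9% of the Ms4a7 but 37.2% of the Ms4a6d UMIs, with a further 29.9% of Ms4a6d in monocyte-like cells. Mature neutrophil-like cells, the most frequent class, held between 0.121% (Ms4a6b) and 2.51% (Ms4a7) of a member's UMIs.

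**Figure D2:**
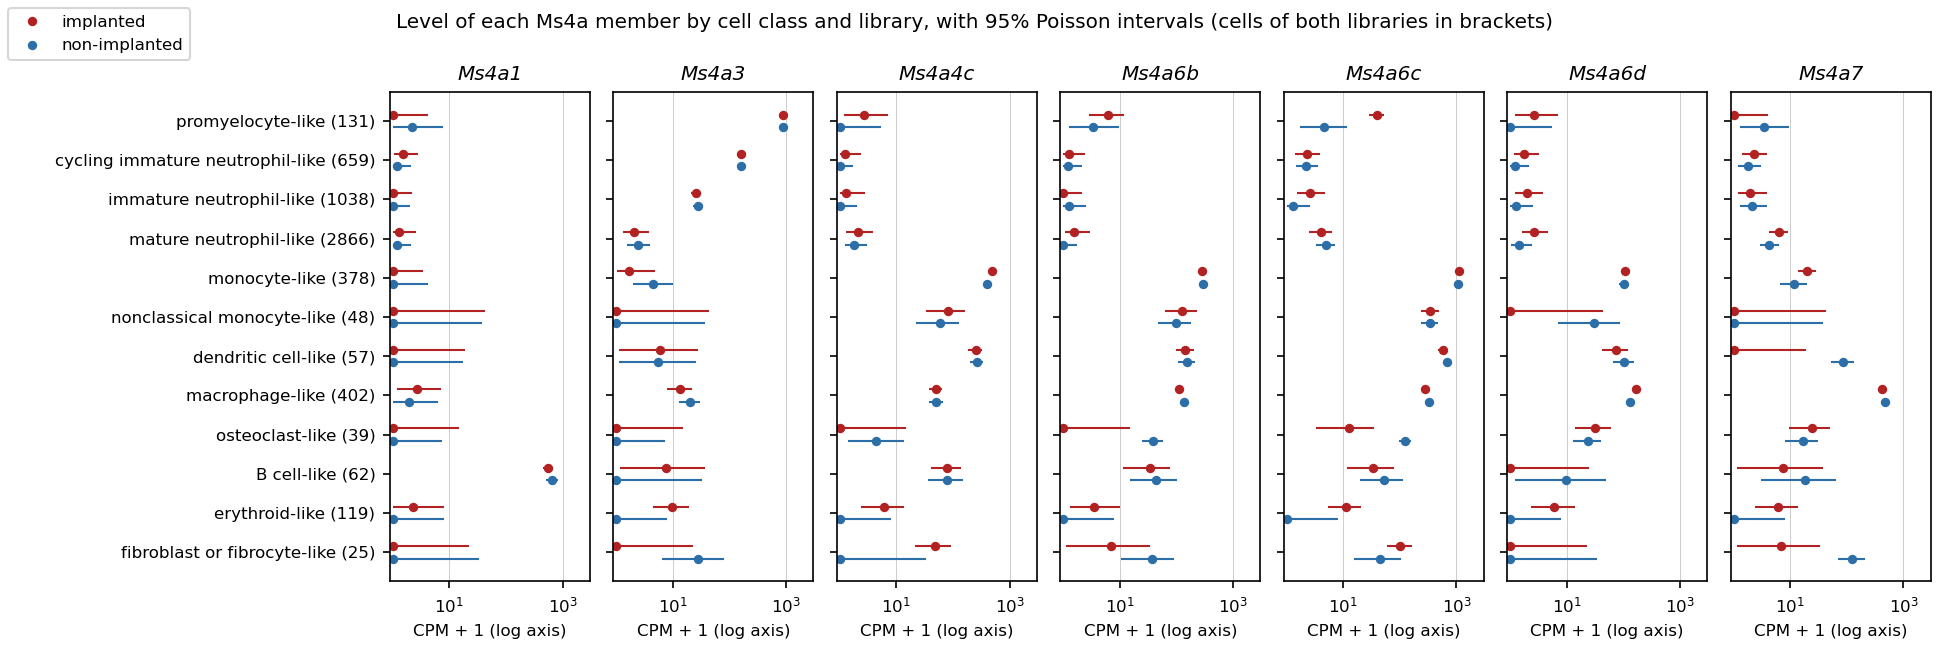
CPM plus 1 of each member (7 panels, log axis) in 12 cell classes, red for the implanted and blue for the non-implanted library. Points are levels from summed UMIs, bars are 95% Poisson intervals, and the number of cells stands beside each class name. Ms4a1 stands out in 1 class and Ms4a3 steps down along the neutrophil classes, while Ms4a6c is present in monocyte-like, dendritic cell-like, nonclassical monocyte-like and macrophage-like cells.

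Ms4a1, the CD20 gene, was a gene of B cell-like cells in both libraries. It reached 556 CPM (444 to 688; 85 UMIs) in 37 implanted cells and 656 CPM (517 to 821; 76 UMIs) in 25 non-implanted cells. At least 1 UMI was found in 56.8% and 72.0% of these cells. In mature neutrophil-like cells, which should lack the gene, the share was 0.0799% and 0.0619% at a median of 2709 and 2772 UMIs, against 3306 and 3688 UMIs for B cell-like cells. After thinning each cell to 1000 UMIs the shares in B cell-like cells were 38.9% and 48.0%. No Ms4a1 UMI was found in 378 monocyte-like cells, which allows a share of cells with a UMI of up to 0.794%. The next class, macrophage-like cells, had 3 UMIs in 402 cells.

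Within the B lineage, Ms4a1 differed between 3 small clusters. The largest, of 41 cells, had 695 CPM of Ms4a1 and carried genes of later B cells, namely 589 CPM of Ighd (the heavy chain of IgD), 322 CPM of Fcer2a (CD23) and 14927 CPM of Cd74 (the MHC class II invariant chain). In a cluster of 14 cells with 3820 CPM of Vpreb3, a gene of precursor B cells, Ms4a1 was at 1048 CPM (773 to 1389), but its 48 UMIs came from 6 cells. Fcer2a had 0 UMIs in those 14 cells, and Dntt and Vpreb1, genes of early B precursors, had 9 UMIs each, in each case from 1 cell. In a cluster of 7 cells with 2807 CPM of Vpreb3, Ms4a1 was at 16.2 CPM (0.411 to 90.4), a single UMI. The score for cell cycle markers was 6.93 in those 7 cells, against 0.224 in the 41 and 0.0397 in the 14 cells. The part of cell cycle in the Ms4a1 values was not tested. Rag1 had 0 UMIs in all 3 clusters. The stage genes did not separate the clusters fully. Ighd was also seen in 35.7% of the 14 cells (153 CPM) and 85.7% of the 7 cells (211 CPM). Vpreb3 was seen in 34.1% of the 41 cells (130 CPM), and Cd22, another later gene, was at 236, 175 and 32.5 CPM in the 41, 14 and 7 cells. Ms4a1 was thus seen in 78.0% of cells of the first cluster, in 42.9% of the second and in 14.3% of the third, whose median depth (9231 UMIs) was the highest of the 3.

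Ms4a3 followed the stages of the neutrophil lineage. It was at 899 CPM (846 to 955) in implanted and 897 CPM (834 to 964) in non-implanted promyelocyte-like cells, the class that makes primary granule proteins such as elastase and myeloperoxidase. In cycling immature neutrophil-like cells it was at 161 CPM in both libraries (636 and 806 UMIs). Immature neutrophil-like cells, which carry secondary granule genes such as Ltf and Camp, had 24.8 and 26.9 CPM. Mature neutrophil-like cells had 1.10 and 1.44 CPM (4 and 7 UMIs in 1251 and 1615 cells). The counting interval of the ratio excluded equality in the steps to cycling immature and to immature cells. Promyelocyte-like cells had 5.57 times (5.19 to 5.97) the Ms4a3 level of cycling immature cells, and those 6.22 times (5.30 to 7.33) the level of immature cells. For the step to mature cells no ratio was taken. Over both libraries immature cells had 25.9 CPM (22.2 to 30.1) and mature cells 1.30 CPM (0.648 to 2.32).

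The share of cells with a Ms4a3 UMI had the same order. It was 98.7% and 100% of promyelocyte-like cells, 65.9% and 64.4% of cycling immature, 10.9% and 12.4% of immature, and 0.320% and 0.310% of mature neutrophil-like cells. These classes differ in depth, from a median of 15100 and 14085 UMIs in promyelocyte-like cells to 2709 and 2772 in mature cells. At 1000 UMIs a cell the order was kept, with 50.0% and 54.5%, then 15.0% and 14.2%, then 1.75% and 1.37%, and then 0.0815% and 0.0626%. A cluster of 392 cells with Chil5 and Mmp8 among its leading genes stayed unnamed. Its Ms4a3 level was 3.91 CPM (1.79 to 7.42, from 9 UMIs), below both immature clusters, which had 31.6 and 17.5 CPM. Its marker score was 4.38 for immature and 2.59 for mature neutrophils, against 4.45 and 3.13 in the immature cluster with 17.5 CPM. The scores therefore do not place the unnamed cluster nearer to mature cells, and no order of cells was computed. At a coarser clustering (resolution 0.5) promyelocyte-like and many cycling cells formed 1 class of 788 cells, and its Ms4a3 level was 297 CPM.

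**Figure D3:**
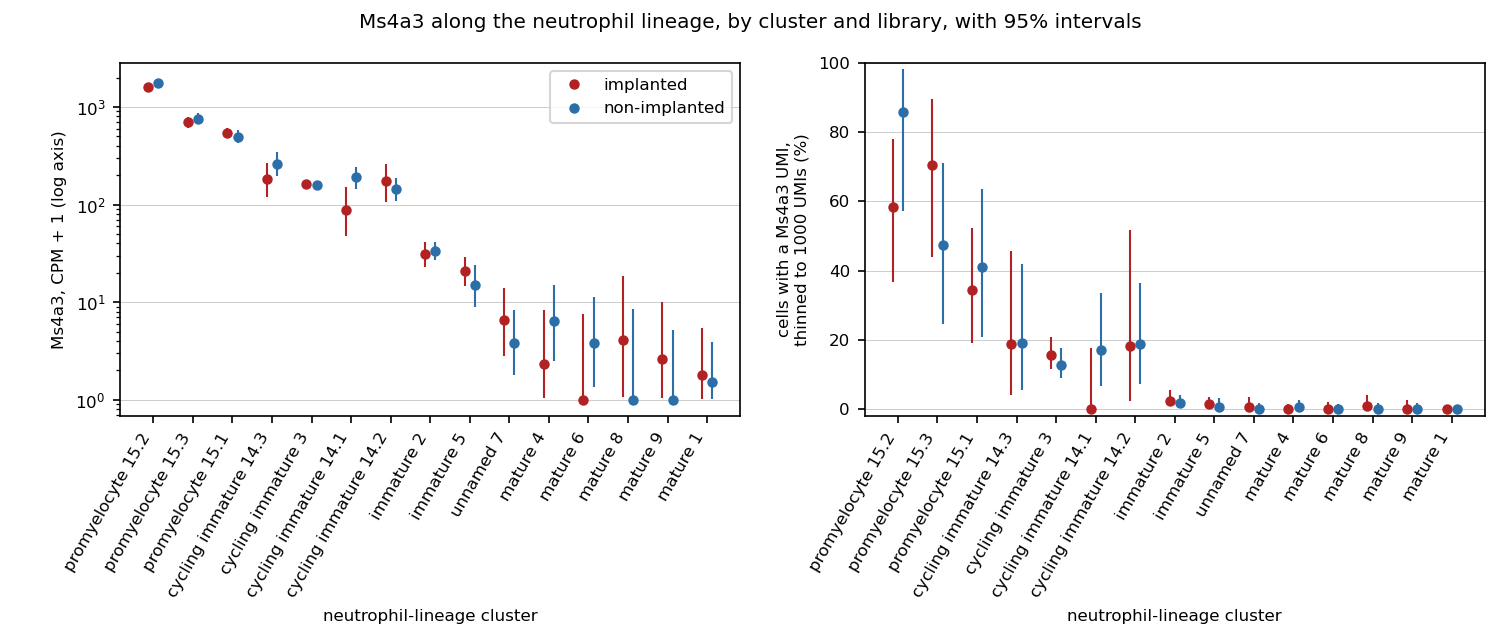
Ms4a3 in 15 clusters of the neutrophil lineage, as CPM plus 1 on a log axis and as the percent of cells with a UMI after thinning to 1000 UMIs. Classes run from promyelocyte-like to mature, and the unnamed cluster of 392 cells was placed by hand between immature and mature. Within a class, clusters stand in falling order of their Ms4a3 CPM over both libraries, so a decline inside a class is set by the sorting. Red is the implanted and blue the non-implanted library, with 95% counting intervals, and the points of Ms4a3 lie at 497 CPM or more in the promyelocyte-like clusters and at 5.48 CPM or less in the mature ones.

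Promyelocyte-like cells were not uniform for Ms4a3. A cluster of 38 cells led by Mpo and Ctsg (myeloperoxidase and cathepsin G) had 1654 CPM (1548 to 1764), against 728 CPM in a cluster of 36 cells and 527 CPM in a cluster of 57 cells whose leading genes included the replication genes Hells and Mcm2. The 38 cells also held 46 of the 48 Ms4a6c UMIs of the class, in 83.1 CPM. These Ms4a6c UMIs were unequal between the libraries, with 45 among implanted and 3 among non-implanted cells (38.3 and 3.61 CPM, a ratio of 10.6, 3.41 to 53.4), but 46.7% of the 45 came from 1 cell. In promyelocyte-like cells 11.8% of 7408 genes with at least 20 UMIs differed at least 1.5-fold between the libraries.

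Outside the lineage, Ms4a3 in macrophage-like clusters and in clusters with nonclassical monocyte genes lay mostly where Camp was also high, unlike in basophil or mast cell-like cells. Of the 35 Ms4a3 UMIs in macrophage-like cells, 30 lay in a cluster of 27 cells (64.8 CPM) with 27602 CPM of Camp, a secondary granule gene, and a median of 14336 UMIs. The macrophage-like clusters led by C1q genes and Mrc1 (82 cells) and by Ccl12 (55 cells) had 0 Ms4a3 UMIs, with 121 and 158 CPM of Camp. Likewise, 2 unnamed clusters of 23 and 12 cells, with the nonclassical monocyte genes Ace and Pparg among their leading genes, had 104 and 47.4 CPM of Ms4a3 beside 42811 and 31141 CPM of Camp, whereas the nonclassical monocyte-like clusters without such Camp (232 and 166 CPM) had 0 Ms4a3 UMIs. The part of neutrophil transcripts in these Ms4a3 values was not tested. In 9 basophil or mast cell-like cells, all but 1 from the implanted library, Ms4a3 had 37 UMIs (642 CPM) in 3 cells. There Mpo stood at 434 CPM, but Elane, the elastase gene, had 0 UMIs and Camp was at 69.4 CPM.

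Ms4a4c, Ms4a6b and Ms4a6c shared monocyte-like cells, the class with Ccr2, Ly6c2 and F13a1. Ms4a6c was at 1101 CPM (1048 to 1156) in 214 implanted and 1051 CPM (992 to 1113) in 164 non-implanted cells. Ms4a4c was at 492 CPM (456 to 529) and 399 CPM (363 to 438). Ms4a6b was at 288 CPM (261 to 317) and 296 CPM (265 to 330). A Ms4a6c UMI was present in 95.3% and 92.1% of monocyte-like cells and in 0.879% and 1.18% of mature neutrophil-like cells. All 3 genes were seen together in 65.0% and 67.1% of monocyte-like cells (7.58% and 9.20% at 1000 UMIs a cell), and none of the 7 members was seen in 2.80% and 4.27%.

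The 3 genes differed in how far they reached beyond monocyte-like cells. Dendritic cell-like cells (27 and 30 cells) came second for all 3, with 632 CPM of Ms4a6c, 256 CPM of Ms4a4c and 149 CPM of Ms4a6b over both libraries. The monocyte-like level was 1.71 times (1.51 to 1.94), 1.76 times (1.45 to 2.16) and 1.95 times (1.51 to 2.56) that level. Macrophage-like cells had 305 CPM of Ms4a6c and 123 CPM of Ms4a6b, not separable by counting error from nonclassical monocyte-like cells (344 and 111 CPM). For Ms4a4c they had 49.5 CPM, and B cell-like cells had 78.2 CPM (48.4 to 119). T cell-like cells (17 cells) had 263 CPM of Ms4a6b from 19 UMIs, 166 CPM of Ms4a4c from 12 UMIs and 3 Ms4a6c UMIs.

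Within the monocyte lineage, Ms4a4c peaked at 608 CPM in a cluster of 65 cells. Its leading genes began with Cxcl10 and included Ifit3, both induced by interferon, but also Nrg1, Arl5c, Vcan, Adora2b, Gab1 and Ms4a4c itself. Nrg1, Vcan and Gab1 were among the leading genes of other monocyte-like clusters too. Of the 65 cells, 51 were from the implanted library. The other large monocyte-like clusters had 389 to 442 CPM. Ms4a6b was highest in 2 unnamed clusters, 484 CPM in 34 cells led by MHC class II genes and 429 CPM in 117 cells that carried monocyte genes (1261 CPM of Ccr2) with Ace and Adgre4 among the leading genes. In nonclassical monocyte-like clusters (378 and 387 CPM of Ace) the 3 genes were lower, at 77.4 and 55.3 CPM of Ms4a4c, 146 and 55.3 CPM of Ms4a6b, and 413 and 235 CPM of Ms4a6c. Osteoclast-like cells, multinucleate relatives of macrophages, had 3 Ms4a6c UMIs in 11 implanted cells (11.5 CPM) and 71 in 28 non-implanted cells (123 CPM). The non-implanted cells were mostly of a cluster whose leading genes began with Mir99ahg, St18, Btbd11 and Tnfrsf11a. Tnfrsf11a encodes the receptor for the osteoclast factor RANKL. That cluster had 137 CPM, against 3.30 CPM in the cluster with Ctsk and Acp5, genes of bone resorption. Inside the cluster with Tnfrsf11a the libraries also differed. Its 5 implanted cells had 2 UMIs of the 7 members, both of Ms4a6c (0.00209% of all UMIs). Its 23 non-implanted cells had 113 (0.0258%), of which 62.8% were Ms4a6c. The part of cluster make-up in the library values was not tested.

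Some reads of these genes may not be separable by sequence. Of the 50-base windows in the longest coding transcript, 8.48% in Ms4a4c occurred also in Ms4a4b or Ms4a4d, 6.08% in Ms4a6c also in Ms4a6b, and 5.66% in Ms4a6b also in Ms4a6c or Ms4a6d. In the last 500 bases the shares were 11.8% for Ms4a4c, 10.4% for Ms4a6c and 0 for Ms4a6b. Ms4a1, Ms4a3 and Ms4a7 shared no window with another Ms4a gene, and Ms4a6d shared 2.92%. Ms4a1, Ms4a4c, Ms4a6b and Ms4a6c each overlap a noncoding gene or pseudogene on the other strand, and how the authors' counting used strand is not given in the sources used here.

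Ms4a7 was concentrated in macrophage-like cells. It was at 414 CPM (378 to 452) in 216 implanted and 469 CPM (428 to 513) in 186 non-implanted macrophage-like cells, and 50.9% and 57.5% of them had a UMI. In mature neutrophil-like cells the share was 1.20% and 0.929%. Monocyte-like cells had 19.0 and 10.6 CPM. In nonclassical monocyte-like cells no Ms4a7 UMI was found among 48 cells, which allows a share of up to 6.25%. Fibroblast or fibrocyte-like cells came second at 53.1 CPM, but 14 of their 15 UMIs came from 1 cell. In dendritic cell-like cells Ms4a7 had 0 UMIs in 27 implanted and 19 UMIs in 30 non-implanted cells (84.1 CPM). The counting interval of the ratio, implanted over non-implanted, reached up to 0.238. These 19 UMIs are fewer than the 20 asked of a gene in the comparison of the libraries, and 29.6% of the 3827 genes that had 20 in this class were past 1.5-fold.

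Macrophage-like clusters ranged widely in Ms4a7. The highest were a cluster of 55 cells led by the chemokine genes Ccl12 and Ccl7 at 887 CPM (788 to 995), a shallow cluster of 121 cells led by Retnla and C1q genes at 827 CPM (669 to 1011), and a cluster of 82 cells led by Mertk and Mrc1 at 626 CPM (561 to 696). The lowest was a cluster of 22 cells, 13 implanted and 9 non-implanted, with a single Ms4a7 UMI (5.55 CPM, 0.140 to 30.9). Those cells had 4786 CPM of C1qa, 1242 CPM of Trem2 and 1769 CPM of Csf1r, so the macrophage markers were present, and their leading genes were Nav3, Sparc, Tmem119, Olfml3 and Gpr34. They also had 5.55 CPM of Mrc1, against 999 and 659 CPM in the clusters of 82 and 55 cells, and 144 CPM of Ms4a6d, close to the 143 CPM of the cluster of 82. The median depth was 7132 UMIs in the 22 cells and 5270 in the 55 cells, 89.1% of which had a Ms4a7 UMI. The remaining macrophage-like clusters had 135 to 358 CPM of Ms4a7. Among them, a cluster of 34 cells also had Olfml3 and Gpr34 among its leading genes, and Ms4a7 made up 54.0% of its 63 UMIs of the 7 members. The 135 CPM stood in a cluster of 12 cells with 10561 CPM of Camp, 65.0% of whose Ms4a7 UMIs came from 1 cell.

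**Figure D4:**
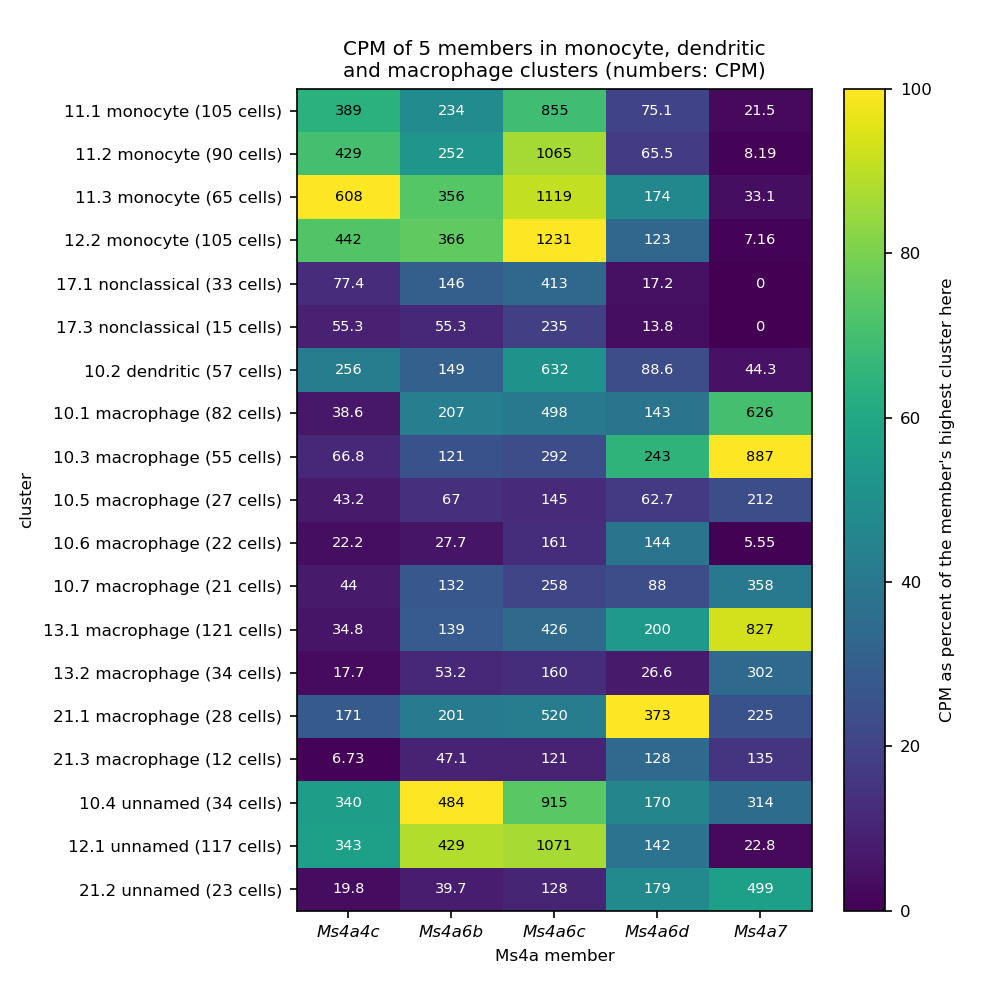
CPM of Ms4a4c, Ms4a6b, Ms4a6c, Ms4a6d and Ms4a7 (columns) in 19 monocyte, dendritic and macrophage clusters (rows, with their number of cells, both libraries together). Colour is the CPM as a percent of that gene's highest cluster shown, so colours compare clusters within a gene and not genes with each other. Ms4a7 lies between 135 and 887 CPM in the macrophage-like clusters except the cluster of 22 cells, at 5.55 CPM.

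Ms4a6d was spread over macrophage-like and monocyte-like cells. It was at 168 CPM (146 to 194) and 131 CPM (109 to 154) in implanted and non-implanted macrophage-like cells, and at 105 CPM (89.3 to 123) and 101 CPM (83.4 to 121) in monocyte-like cells. The macrophage-like level was 1.46 times (1.24 to 1.72) the monocyte-like level over both libraries, and dendritic cell-like cells, at 88.6 CPM, were not separable from monocyte-like cells (1.17 times, 0.829 to 1.69). The highest cluster, at 373 CPM (286 to 477), was 1 of 28 cells led by Arg1, Ccl8 and Pdpn, with 26 of its cells from the implanted library. That cluster also had 520 CPM (417 to 641) of Ms4a6c, not separable from the 498 CPM (440 to 561) of the 82 cells led by Mertk and Mrc1, and 225 CPM of Ms4a7. Ms4a6d was at 0 to 0.933 CPM in the 5 large mature neutrophil-like clusters.

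Between the 2 libraries, none of the 7 members differed by 1.5-fold or more in its own leading class. The ratio was taken of CPM plus 5, with 1.5-fold as the mark, in genes with at least 20 UMIs over both libraries in that class. By that rule 16.2% of 8914 genes in macrophage-like, 8.22% of 8707 in monocyte-like, 11.8% of 7408 in promyelocyte-like, 1.83% of 9723 in cycling immature neutrophil-like and 30.9% of 3005 in B cell-like cells were past 1.5-fold in either direction. On the log2 scale, implanted over non-implanted, Ms4a3 was at 0.00 in promyelocyte-like and 0.00 in cycling immature neutrophil-like cells (ratio 0.999, 0.899 to 1.11). Ms4a6c was at 0.07 and Ms4a6b at -0.04 in monocyte-like cells. Ms4a1 was at -0.24 in B cell-like cells, with a ratio of 0.849 (0.615 to 1.17).

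Ms4a4c and Ms4a6d were the 2 members whose counting interval excluded equality in the leading class with the implanted library higher. For Ms4a4c in monocyte-like cells the ratio was 1.23 (1.09 to 1.39), and without the 65 cells led by Cxcl10 it was 1.18 (1.03 to 1.35), where 8.88% of 8303 genes were past 1.5-fold. In the unnamed cluster of 117 cells with monocyte genes it was 428 CPM among implanted and 268 CPM among non-implanted cells, a ratio of 1.60 (1.24 to 2.07), where 19.5% of 5550 genes were past 1.5-fold. For Ms4a6d in macrophage-like cells the ratio was 1.29 (1.03 to 1.62). Without the Arg1-led and Cxcl3-led clusters of 28 and 12 macrophage-like cells, 26 and 12 of them implanted, it was 1.07 (0.832 to 1.38). In that smaller set 14.8% of 8491 genes were past 1.5-fold. With classes made from marker UMIs per cell, its log2 ratio was -0.10. No replicate shows how much such ratios vary between libraries of 1 group.

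Ms4a7 had no steady direction in macrophage-like cells. The ratio was 0.882 (0.776 to 1.00) in all of them, 1.05 (0.917 to 1.19) without those 2 mostly implanted clusters, and the log2 ratio was -0.44 without the cluster of 27 cells with high Camp and 0.37 with each library clustered on its own. By cluster, the implanted library was higher among the 55 cells led by Ccl12 (1040 against 752 CPM) and lower in the shallow cluster of 121 cells (667 against 983 CPM, a ratio of 0.679, 0.438 to 1.04). In that shallow cluster Ms4a6c was also lower in the implanted library, at log2 -1.01, where 29.4% of 873 genes were past 1.5-fold. Among the 82 cells led by Mertk and Mrc1, Ms4a7 had a ratio of 0.848 (0.674 to 1.06) and Ms4a6b was at 128 against 261 CPM, a ratio of 0.489 (0.307 to 0.757), where 28.3% of 5063 genes were past 1.5-fold. In those cells Ms4a6d, at 100 against 172 CPM (0.583, 0.339 to 0.97), and Ms4a4c, at 18.2 against 52.3 CPM (0.349, 0.0854 to 1.07), were also lower in the implanted library and past 1.5-fold. Among the Ccl12-led cells Ms4a4c was lower too, with 5 and 17 UMIs and a ratio of 0.335 (0.0967 to 0.947), where 34.2% of 2967 genes were past 1.5-fold, and Ms4a6d had a ratio of 1.47 (0.922 to 2.35). In monocyte-like cells Ms4a7 was past 1.5-fold, with 28 and 12 UMIs and a ratio of 1.79 (0.880 to 3.86) whose interval includes equality, and without the 65 Cxcl10-led cells it was 1.12. The unnamed cluster of 23 cells led by Mfge8, Mmp12, Gpnmb and Spp1 was found in the implanted library only. Mmp12, Gpnmb and Spp1 are genes of lipid-laden and repair macrophages. The cluster had 499 CPM of Ms4a7 (428 to 578) and 179 CPM of Ms4a6d (137 to 229).

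**Figure D5:**
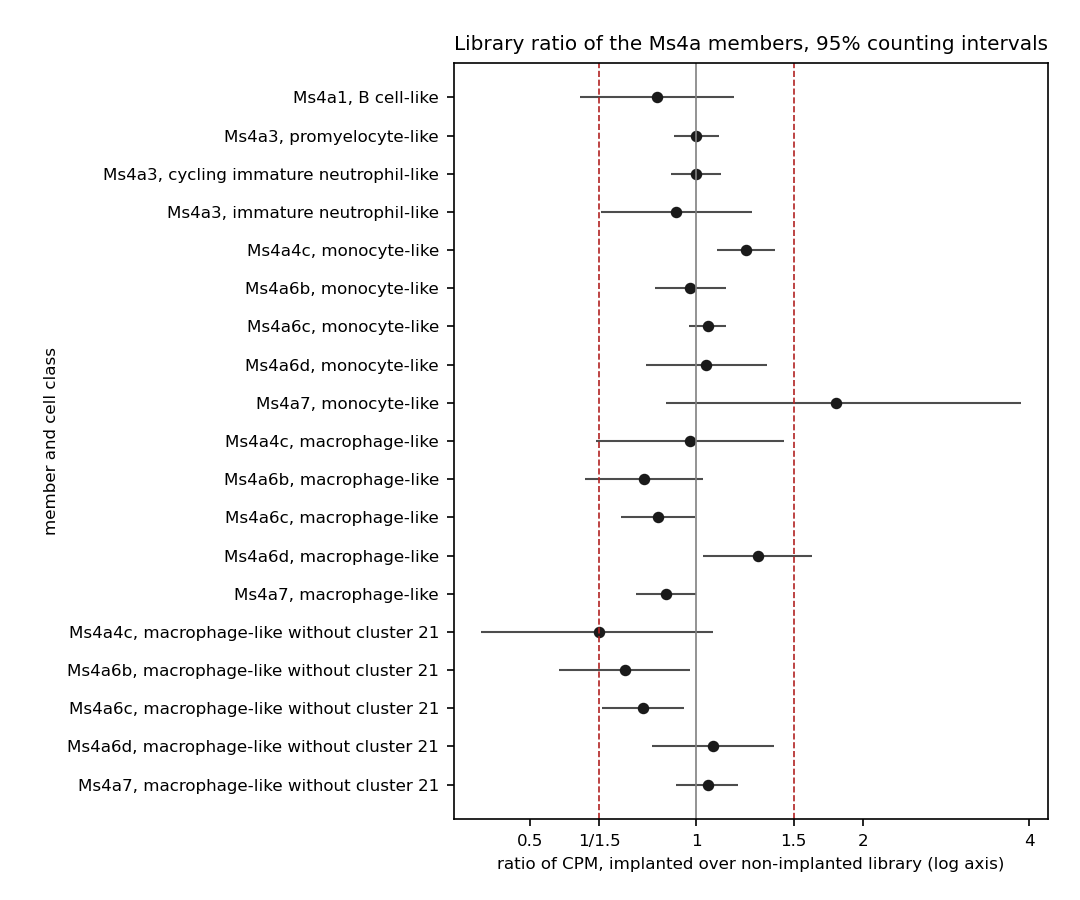
Ratio of CPM, implanted over non-implanted, on a log axis, for 19 pairs of a member and a class, with 95% counting intervals. The solid line is equality and the dashed lines are 1.5-fold in either direction, here without the 5 CPM that the call adds. Of these pairs, Ms4a7 in monocyte-like cells is the one past the upper dashed line, at 1.79. Ms4a4c in macrophage-like cells without cluster 21 (the Arg1-led and Cxcl3-led clusters of 28 and 12 cells) lies on the lower one, at 0.666.

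Over all cells together, all 7 members were higher in the implanted library, with log2 ratios from 0.12 to 0.58. Ms4a6d was at 29.1 and 17.9 CPM (ratio 1.62, 1.42 to 1.86), Ms4a4c at 57.7 and 37.0 CPM (1.56, 1.42 to 1.72), and Ms4a3 at 101 and 83.6 CPM (1.21, 1.14 to 1.30). Ms4a7 was at 41.0 and 31.5 CPM and Ms4a6c at 150 and 117 CPM. The classes in which these genes were highest were also larger shares of the implanted library, as given above. In the whole libraries 2.72% of 15058 genes were past 1.5-fold on the scale of CPM plus 5, and none of the 7 members was (log2 0.58 for Ms4a4c and 0.57 for Ms4a6d).

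Of the other 12 Ms4a genes, 5 had at least 20 UMIs in all cells, 4 had 1 to 19, and 3 had 0. Ms4a4a (357 UMIs) and Ms4a8a (329 UMIs) were highest in monocyte-like cells, at 84.6 CPM (73.8 to 96.5) and 88.8 CPM (77.7 to 101). Ms4a14 (66 UMIs) was a gene of macrophage-like cells, with 48 UMIs in 43 of 402 cells (21.6 CPM). Ms4a4b (185 UMIs) was at 35.4 CPM in monocyte-like cells and had 54 UMIs in 7 of the 17 T cell-like cells. Ms4a2, the IgE receptor beta chain, had 47 of its 72 UMIs in the 9 basophil or mast cell-like cells. Of the 65 UMIs of Fcer1a, the alpha chain of that receptor, 96.9% were in that class and 3.08% in megakaryocyte or platelet-like cells. Fcer1a was among the marker genes that named the class. Tmem176a and Tmem176b, genes related to the family, were highest in dendritic cell-like cells, at 876 and 1065 CPM. In macrophage-like cells they were lower in the implanted library and past 1.5-fold, at 320 against 571 CPM and 457 against 731 CPM, and without the mostly implanted clusters at 424 against 575 CPM and 605 against 736 CPM, no longer past it.

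Of the genes described elsewhere as partners of MS4A proteins, some were spread over more classes than the members and some were not. Fcer1g, the shared signalling chain of Fc receptors, was at 793 CPM or more in every neutrophil, monocyte, macrophage and dendritic class of at least 20 cells in each library. Clec7a, the beta-glucan receptor Dectin-1, was at 726 and 720 CPM in mature neutrophil-like cells, where every member was at 5.24 CPM or less, and at 749 and 690 CPM in monocyte-like cells. Trem2, a lipid-sensing receptor of macrophages, was at 690 and 392 CPM in macrophage-like cells. Cr2, which encodes a complement receptor of B cells, had 89.2% of its 37 UMIs in B cell-like cells. Cd40, a costimulatory receptor, was highest in dendritic cell-like cells, at 128 and 230 CPM, but 1 cell held 30.8% of the 26 implanted and 1 cell 48.1% of the 52 non-implanted UMIs.

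Likeness to other genes was measured as Pearson's r of log2(CPM + 5) over 41 clusters of at least 20 cells, among 9411 genes with at least 200 UMIs. These clusters share 2 libraries and differ in depth, so the values are descriptions. Ms4a6b and Ms4a6c were each other's closest gene (r = 0.984). For Ms4a4c the closest was Ccr2, the receptor that recruits monocytes from the marrow (r = 0.957), and Ms4a6b was among its 5 closest (0.939). For Ms4a3 they were Nkg7 (0.946), Mogat2 (0.940) and the serine protease gene Prss57 (0.934). For Ms4a6d they were AI607873 (0.933), the Fc receptor gene Fcgr1 (0.932) and the cathepsin gene Ctss (0.921). For Ms4a7 they were the mannose receptor gene Mrc1 (0.934), Cxcl16 (0.886) and the scavenger receptor gene Stab1 (0.881). Among members, Ms4a3 was negatively related to the 5 mononuclear members, with r from -0.46 (Ms4a6d) to -0.35 (Ms4a7), and Ms4a7 was closer to Ms4a6d (0.76) than to Ms4a4c (0.51). Ms4a1, with 174 UMIs, was not ranked.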

How the data were processed

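The authors deposited whole-number UMI counts per gene and barcode for 2 libraries, whose headers name Cell Ranger 3.0.1. The submitters' processing notes name mm10, also called GRCm38, and Seurat. The annotation release behind the deposited counts is not given in the sources used here, and all 7 member identifiers matched GENCODE M21 with their version. The labels carry a dissection protocol for another tissue than the series text, so tissue handling is not described. Spike-in and transgene rows were left out. The members, gene lists and marker lists were chosen with earlier results of these data known.

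Cells needed at least 200 genes and at most 10% mitochondrial UMIs. Likely doublets were the barcodes with the highest Scrublet scores (scanpy 1.11.5), 0.8% per 1000 deposited barcodes. Counts were scaled per cell, logged, reduced to 2000 variable genes other than Ms4a genes and 30 principal components, and clustered in a graph of 15 neighbours (leidenalg 0.10.2, resolution 1), giving 22 clusters. Clusters under 5% of cells were clustered once more, which gave 54 in all. Names came from 23 marker lists by the mean log2 ratio over a 20th percentile baseline, and a cluster stayed unnamed where its 10 leading genes held more markers of another type or where under 3 markers were detected. That score and the splitting were settled after the clusters had been seen. The 9.28% of cells in unnamed clusters enter no class.

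UMIs were summed per class and library. Intervals were exact Poisson for CPM, Clopper-Pearson for shares and exact conditional for ratios, at 95%. PCR and capture make UMIs of 1 cell dependent, so they cover counting error only. Limits for a count of 0 used 3 counts. The ratio code was tested on simulated data. Promoters were aligned locally (match 1, mismatch -1, gap opening -3, extension -0.5). Named besides the members were other Ms4a genes and Tmem176a and Tmem176b with at least 20 UMIs, a list of partners, B cell stage genes, and the 5 genes most alike each member, of which the closest are printed. Clusters were named in the text by their leading genes after their values were seen. Alternatives were other doublet numbers, no cell filter, other resolutions, Ms4a genes allowed, separate clustering, classes from marker UMIs, equal weight per cell, thinning, and pseudocounts of 1 and 20 CPM; leaving out or adding single clusters was chosen after seeing the data. Python 3.11.15, numpy 2.4.6, scipy 1.17.1 and pandas 2.3.3 were used.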

Additional observations from a re-analysis of the deposited data

How the results depend on the processing

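No paired analysis was possible because each group is 1 library and the groups share only 1 replicate number, and no library could be left out. The class in which each of the 7 members was highest was kept in all 10 planned and 4 added alternatives run for it. The number of members whose share of cells in that class lay above that of mature neutrophil-like cells in both libraries, with intervals that do not overlap, was 7 in every alternative run. As that class was picked as the member's highest in these same data, this count was largely settled beforehand and adds no support. The number of members at least 1.5-fold apart between the libraries in that class was 0, except 1 with each library clustered separately (Ms4a6d, log2 0.78) and 1 after thinning to 1000 UMIs (Ms4a6b, log2 -0.68); the cause was not tested. Of single values under the alternatives, 72 of 98 levels, 102 of 112 log2 ratios and 158 of 182 shares stayed within the main counting interval. Levels ranged from 297 to 1010 CPM for Ms4a3, 496 to 885 for Ms4a1 and 377 to 573 for Ms4a7. The log2 ratio of Ms4a6d in macrophage-like cells ranged from -0.10 to 0.78 and that of Ms4a7 from -0.44 to 0.37. Of the leading classes, depth limits B cell-like cells most (62 cells), where 30.9% of genes with at least 20 UMIs were past 1.5-fold. Clusters left out or added were chosen after seeing the data.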
